A study of Mus musculus with 11 samples.

Results

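The potassium channel genes of the mouse heart are described here as all protein-coding genes whose symbol begins with Kcn and whose level averaged at least 0.5 CPM, the count relative to its library total, across 11 heart libraries. Of 94 protein-coding Kcn genes in the count table, which held 55487 identifiers, 53 met that line and 41 did not. The line was set on the measured level, so it is a description that these genes were detected, and a gene that is high in some groups alone can reach it through them. Just inside it lay Kcnj13 at 0.648 CPM, Kcnk1 at 0.520 CPM and Kcnk4 at 0.506 CPM, and just outside it lay Kcnn4 at 0.481 CPM, Kcna3 at 0.444 CPM and Kcnj14 at 0.444 CPM. Of the 53 members, 43 had a mean of at least 0.5 CPM in each of the 3 groups, and 10 reached the line through some groups while another group's mean was under it.

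Heart RNA came from female mice of the inbred strain C57BL/6NTac, which began their diet when 8 weeks old and were kept on it for 24 weeks. The ObeSeno group (3 libraries) ate an obesogenic diet, a chow with 60.3% of its energy from fat plus sweetened condensed milk, and from week 16 was gavaged with 5 mg/kg dasatinib and 50 mg/kg quercetin in 10% PEG400. The Obese group (4 libraries) ate the same obesogenic diet and was gavaged from week 16 with 10% PEG400 alone. The Cntl group (4 libraries) ate a control diet in which fat supplied 10.4% of the energy, and the labels do not say whether it received gavage. Dasatinib blocks tyrosine kinases and quercetin is a flavonoid from plants; as a pair they serve as a senolytic, meant to clear senescent cells. The labels give the tissue as heart without naming chambers. Separate animals are not stated for the libraries of a group, and the p-values therefore cover library-to-library spread, which may be technical.

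Potassium channels let potassium ions leave the cardiac myocyte, which ends the action potential and holds the membrane at its resting voltage. The voltage-gated (Kv) channels open on depolarisation and repolarise the cell, the inward rectifiers (Kcnj) set the resting potential or answer to ATP and to acetylcholine, the Kcnk channels with paired pore domains carry background leak, and the Kcnn, Kcnma and Kcnt channels open with calcium or sodium. Modifier and accessory subunits form no open pore by themselves and change how many channels reach the membrane and how they gate. In the mouse ventricle the early phase of repolarisation is carried mainly by the transient outward current, whose pore is made of Kcnd2 and Kcnd3 and whose obligatory partner is Kcnip2.

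By role, the members comprised 19 of 30 Kv pore-forming subunits, 2 of 10 Kv modifier subunits, 8 of 15 inward rectifiers, 8 of 14 two-pore-domain (Kcnk) channels, 6 of 8 calcium- and sodium-activated channels and 10 of 17 accessory subunits. Pore-forming members are known to share a stretch of coding sequence for the selectivity filter, the narrowest part of the pore. Its presence in them is given as a description and not as a finding. A search of the reading frames of GENCODE GRCm38 transcripts looked for 5 codons in a row: a threonine or serine codon, one whose middle base is T, a glycine codon (GGN), a tyrosine or phenylalanine codon (TAT, TAC, TTT or TTC) and a second GGN. It was present in 41 of the 53 members, in 5 of the 8 Kcnk genes as a pair of copies, and in 0 of the 10 accessory subunits. Kcnk7 and Kcnk1 were the only other members without it. Of the 44 copies whose codons were compared, 30 had TAT or TAC as the 4th codon and 14 had TTT or TTC. Among the inward rectifiers only Kcnj11 and Kcnj8, the pores of ATP-sensitive channels, had TTT or TTC there. The stretches of 4 members that were lower in Obese than in Cntl hearts are shown with their 5 filter codons in capitals. The stretches separate these genes, which carry results below, from each other. Kcnj2 is at chr11:111072192-111072230 on the plus strand, Kcnj11 at chr7:46099487-46099525 on the minus strand, Kcnj8 at chr6:142566439-142566477 on the minus strand and the second copy of Kcnk3 at chr5:30622187-30622225 on the plus strand, each within 1 coding exon of GRCm38.
Kcnj2: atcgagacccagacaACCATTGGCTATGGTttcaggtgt
Kcnj11: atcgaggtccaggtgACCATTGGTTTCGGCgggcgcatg
Kcnj8: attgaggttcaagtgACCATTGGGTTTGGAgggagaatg
Kcnk3 second copy: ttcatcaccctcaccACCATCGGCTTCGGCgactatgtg

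The 250 bases before the annotated start were read from the RefSeq table of build GRCm38.p6 for 3 members that were lower in Obese than in Cntl hearts. They are shown as examples of genes that fell, and a link between these sequences and the fall was not tested. The searched motifs were the E-box CACGTG, the Irx-type site ACANNTGT, the MEF2-type site and the GC box GGGCGG, on both strands, and matches are in capitals. Kcnip2 (chr19:45816064-45816313, minus strand) held GC boxes at -87 and -17 from the start, Kcnj2 (chr11:111065914-111066163, plus strand) held an E-box at -84 and GC boxes at -102 and -51, and Kcnj8 (chr6:142571615-142571864, minus strand) held none of the 4 motifs. Kcnj8 was also the poorest of the 3 in G and C bases, with 49.2% against 66.8% for Kcnip2 and 65.6% for Kcnj2. Over 32851 promoters of the table the E-box was found in 6.02%, the Irx-type site in 6.31%, the MEF2-type site in 3.2% and the GC box in 32.7%. Over the 56 promoters of the 39 matched members the shares were 7.14%, 5.36%, 1.79% and 35.7%. Counted by gene, a GC box was found for 20 of the 39 matched members, for 2 of the 4 that fell in Obese hearts and for 5 of the 8 that rose. A match is a description of letters and not a binding site.
Kcnip2: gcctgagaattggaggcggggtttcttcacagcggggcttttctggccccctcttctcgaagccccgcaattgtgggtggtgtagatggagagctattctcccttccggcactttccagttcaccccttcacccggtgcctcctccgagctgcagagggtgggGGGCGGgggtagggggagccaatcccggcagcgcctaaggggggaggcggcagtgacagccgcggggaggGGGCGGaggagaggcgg
Kcnj2: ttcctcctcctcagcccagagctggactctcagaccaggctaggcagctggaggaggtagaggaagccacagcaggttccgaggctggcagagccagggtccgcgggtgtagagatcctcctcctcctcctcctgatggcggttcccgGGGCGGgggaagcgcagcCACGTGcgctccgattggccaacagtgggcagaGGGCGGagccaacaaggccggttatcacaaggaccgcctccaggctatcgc
Kcnj8: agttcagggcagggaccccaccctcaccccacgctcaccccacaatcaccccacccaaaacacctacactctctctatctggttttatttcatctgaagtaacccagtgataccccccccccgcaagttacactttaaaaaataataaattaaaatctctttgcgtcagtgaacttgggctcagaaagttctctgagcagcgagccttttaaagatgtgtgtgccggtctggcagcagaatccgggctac

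Levels between genes are compared as CPM, scaled by TMM library factors, per kilobase of merged exon. Over all 11 libraries the highest were Kcnk3 (46.1 per kb), the Kv modifier Kcng2 (38.7 per kb), Kcnip2 (33.4 per kb), Kcnj11 (25.9 per kb), Kcnj3 (22.1 per kb) and Kcnh2 (18.6 per kb). Kcnj5, Kcnq1, Kcnj2, Kcnj8 and Kcnj12 were also among the 12 highest, with 14.6 per kb for Kcnj5 and 6.22 per kb for Kcnj12. The lowest member was Kcnma1 at 0.0870 per kb. Kcnk3 stood above Kcng2 in 10 of 11 libraries, whereas the order of Kcng2 and Kcnip2 held in 6 of 11, of Kcnj3 and Kcnh2 in 5 of 11 and of Kcnq1 and Kcnj2 in 6 of 11, so those neighbours were not separated. The transient outward pores lay lower, with Kcnd2 at 4.14 per kb and Kcnd3 at 3.65 per kb, and the accessory subunit Kcnip2 exceeded the sum of both in every library. Summed TMM-scaled levels of the 53 members were 1310 ± 116 CPM in ObeSeno, 1092 ± 165 CPM in Obese and 1292 ± 132 CPM in Cntl hearts (SD, n = 3, 4 and 4). On library totals without scaling the same sums were 1464 ± 209 CPM in ObeSeno, 1212 ± 167 CPM in Obese and 1068 ± 65.1 CPM in Cntl hearts, so the order of the groups depended on the scaling.

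The libraries differed in ways that touch these genes. Library totals were 64199080 to 72282073 counts in ObeSeno, 52736860 to 67247567 in Obese and 73097532 to 103293081 in Cntl hearts, and mitochondrially encoded genes took 17.8% to 22.4% of them in ObeSeno, 21.4% to 24.5% in Obese and 28.2% to 32.3% in Cntl hearts. Genes annotated as sense-intronic or as TEC, a class of unverified transcripts, took 0.509% to 0.671% of counts in ObeSeno, 0.663% to 0.811% in Obese and 0.286% to 0.590% in Cntl hearts. All 6 ventricular myocyte markers were detected in every library. Their TMM-scaled sums were 18445 to 22454 CPM in ObeSeno, 14726 to 21622 CPM in Obese and 20269 to 27942 CPM in Cntl hearts. Most of each sum came from Myh6 (12700 to 17604 CPM on library totals), so the sums mainly follow that gene. Of the 6 markers, 3 (Myl2, Myl3 and Tnnt2) were lower in Obese than in Cntl. Obese library 3 and ObeSeno libraries 2 and 3 stood apart: the summed level of 8 atrial myocyte markers was 3788 to 8154 CPM in these 3 and 350 to 820 CPM in the other 8, and 7 of the 8 markers were above the other 8 libraries in all 3. The same 3 libraries were also above the other 8 for 3 of 7 conduction system markers, 2 of 7 fibroblast markers, 2 of 8 adipocyte markers and 1 of 11 neuron and Schwann markers, and below them for 3 of 6 endothelial markers. The conduction system markers summed to 69.7 to 195 CPM in ObeSeno, 73.7 to 242 CPM in Obese and 54.6 to 65.2 CPM in Cntl hearts, with 3 of 7 markers (Cacna1g, Cntn2 and Hcn4) called higher in Obese than in Cntl and 0 lower. The conduction marker Isl1 was at 0 in some libraries. Neuron and Schwann markers summed to 15.2 to 20.7 CPM in ObeSeno, 13.7 to 23.8 CPM in Obese and 10.6 to 13.2 CPM in Cntl hearts, with 2 of 11, Dbh among them, higher in Obese than in Cntl and Nefl, Nefm, Prph, Snap25 and Th at 0 in some libraries. Of 6 endothelial markers, Cdh5 and Kdr were lower than in Cntl in both obese groups, and the list summed to 608 to 651 CPM in ObeSeno, 622 to 770 CPM in Obese and 795 to 931 CPM in Cntl hearts. Of 8 adipocyte markers, 4 were higher than in Cntl in both obese groups, Adipoq and Cidec among them, and Cidea was lower; the list summed to 7.04 to 20.1 CPM in ObeSeno, 5.6 to 13.9 CPM in Obese and 9.82 to 16.6 CPM in Cntl hearts, and 5 of the 8 were at 0 in some libraries. Over all genes tested 14.4% were called higher and 15.7% lower in Obese against Cntl, and 7.43% and 8.39% in ObeSeno against Cntl. In Obese relative to Cntl, 2 of 8 lymphocyte markers were lower, and 1 of 7 fibroblast, 1 of 7 erythroid and 0 of 7 macrophage markers were higher. The part of these differences in the channel results was not tested, except where values without the 3 libraries or with a covariate are given.

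The first comparison asked how channel messages under the obesogenic diet with vehicle differed from those under the control diet. The labels do not say whether Cntl mice were gavaged, so diet and gavage with vehicle cannot be told apart here. Of the 53 members, 11 rose (20.8%) and 6 fell (11.3%) in Obese hearts, and 36 did not pass the test (edgeR quasi-likelihood, Benjamini-Hochberg adjusted p under 0.05 over 23779 genes). Over all genes tested 14.4% were called higher and 15.7% lower, so the share of members called in either direction lay near the background of 30.1%. Obese and Cntl libraries did not overlap for 16 members, against 28.5% of all genes tested, and limma voom also called 11 members higher and 6 lower, against 29.5% of all genes in either direction. At an unadjusted p under 0.05 there were 24 members, against 42.7% of all genes, and DESeq2 called 12 members higher and 9 lower, against 34.5% of all genes. The median log2 fold change was 0.29 over the members and 0.11 over all genes tested. The genes that fell were Kcnip2, Kcnj2, Kcnj8, Kcnj11, Kcnk3 and Kcnq5, and among those that rose were Kcnd1, Kcnd3, Kcnc1, Kcne1, Kcnab1, Kcnip1, Kcnn3, Kcnma1, Kcnj15 and Kcnk7. Of the 6 that fell, 5 were among the 12 highest members per kb, and the median of the 6 was 17.9 per kb; of the 11 that rose, 0 were among those 12, and their median was 0.307 per kb. Over the 17844 tested genes at or above 0.5 CPM with an exon length, the genes called lower also had the higher median, at 6.81 per kb, against 1.31 per kb for those called higher. Among the 43 members at or above the line in every group, 5 rose and 5 fell, and among the 10 with a group mean under it, 6 rose and 1 fell. The line itself admitted those 10 through the groups in which they were high, so the low level of the rising members is in part set by the selection.

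The scaling of libraries and the intronic share both bear on these counts. With library totals in place of TMM factors, the median of all genes moved to 0.53 on the log2 scale. In that fit 22 members were called higher and 4 lower, against 9061 genes higher and 960 lower among all 23779 tested. Kcnip2 (-0.72), Kcnj2 (-0.40), Kcnj8 (-0.41) and Kcnq5 (-1.03) were still called lower. With the sense-intronic and TEC share as a covariate, 0 of 53 members were called in either direction, against 35 genes higher and 86 lower over all genes tested. Some estimates were as large or larger in that fit, at 2.93 ± 0.74 for Kcnj15, 2.61 ± 0.74 for Kcnip1, 2.05 ± 0.74 for Kcne1, 1.71 ± 0.50 for Kcnd1 and 0.94 ± 0.28 for Kcnn3, with larger standard errors. Others were smaller, at -0.66 ± 0.41 for Kcnip2, -0.44 ± 0.27 for Kcnj2, -0.42 ± 0.27 for Kcnj8, 0.08 ± 0.17 for Kcnd3, -0.06 ± 0.23 for Kcnj11 and -0.03 ± 0.25 for Kcnk3. The ranges of that share in Obese and Cntl libraries do not overlap, so the diet and whatever sets this share cannot be told apart in these libraries. In RNA of heart tissue whose chambers are not named, fewer cells of a type and less message per cell cannot be told apart either.

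**Figure D1:**
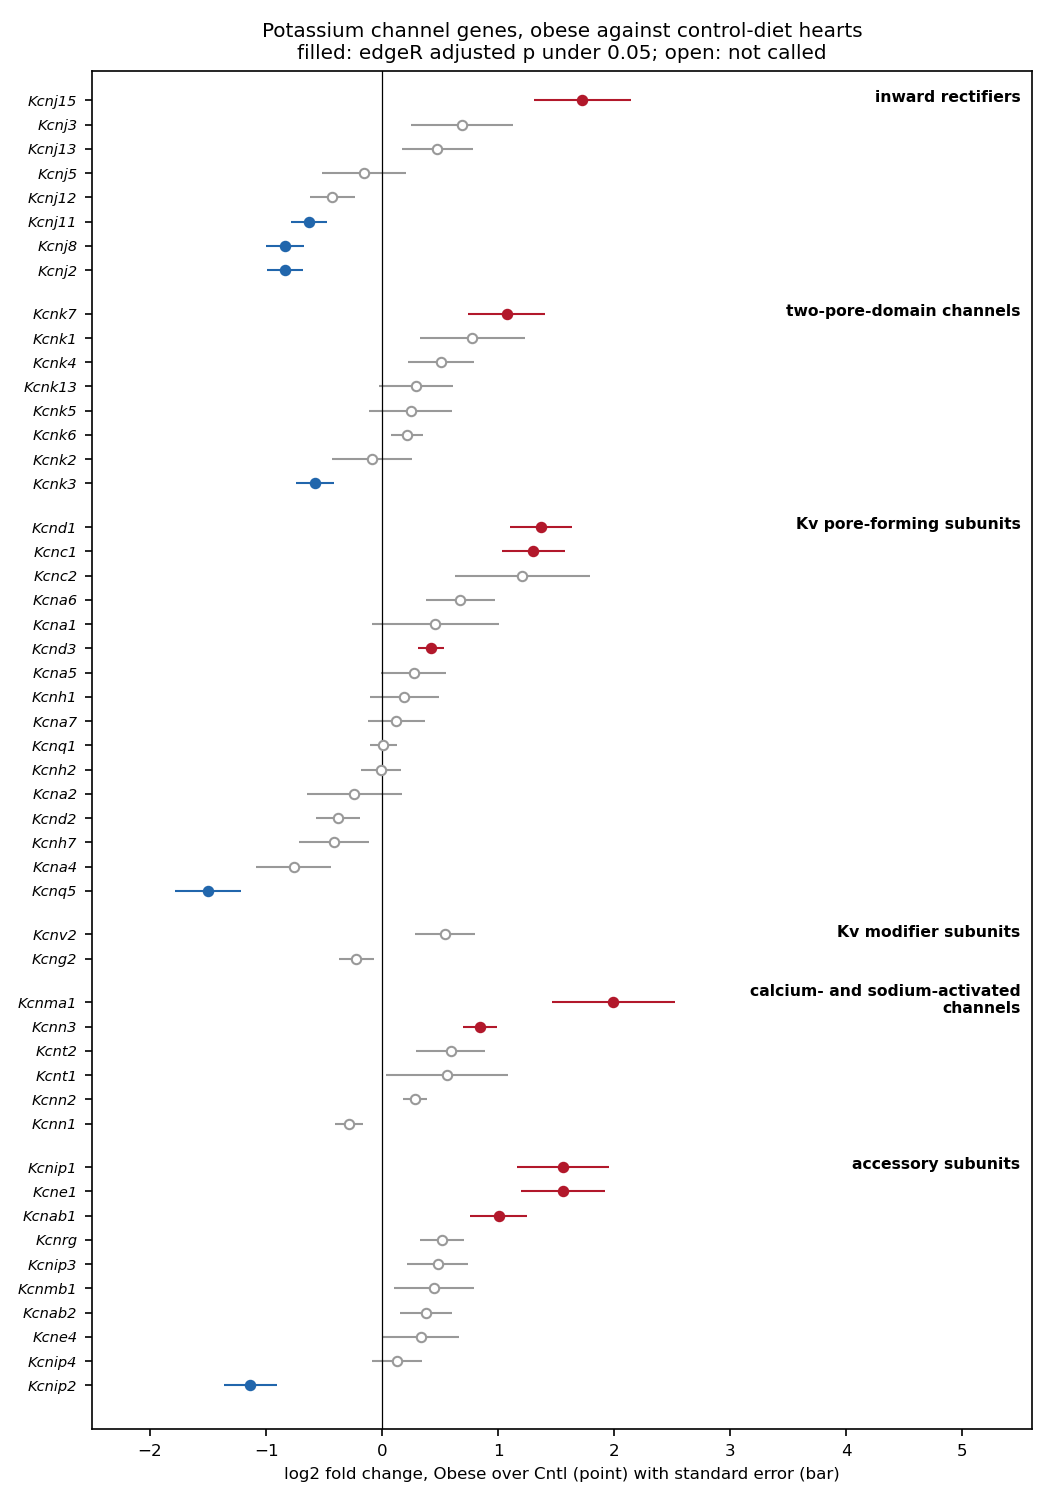
Log2 fold change of 50 of the 53 potassium channel genes in Obese over Cntl hearts (horizontal axis; the point is the estimate and the bar its standard error), grouped by role. Filled points passed the adjusted p threshold: 10 lie right of 0 and 6 left of it, with Kcnip2 at -1.14 and Kcnj2 at -0.84 on the left.

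Among the inward rectifiers, 3 of 8 fell in Obese hearts and 1 rose. Over all genes tested 15.7% were called lower and 14.4% higher. That background also stands beside the counts for the other groups of members below, each of which holds few genes. Kcnj2, the main pore of the inward rectifier current that holds the resting potential, had 47.8, 48.9 and 40.1 CPM in ObeSeno hearts, 45.3, 30.0, 45.8 and 41.6 CPM in Obese hearts and 86.1, 56.7, 70.8 and 77.5 CPM in Cntl hearts. Every library of both obese groups was below every Cntl library, and the log2 fold change in Obese over Cntl was -0.84 ± 0.15 (SE, adjusted p = 0.00193). Its partner in the same current, Kcnj12, had 18.9, 20.4 and 23.9 CPM in ObeSeno, 14.3, 8.55, 15.4 and 15.1 CPM in Obese and 23.4, 14.2, 18.7 and 15.5 CPM in Cntl hearts. The Obese and Cntl ranges of Kcnj12 overlapped and its change of -0.43 ± 0.19 did not pass (adjusted p = 0.106), though without Cntl library 2 it did (-0.55, adjusted p = 0.0482).

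The pores of the ATP-sensitive channels, which open when cellular ATP falls, both fell. Kcnj11, the pore in the ventricular myocyte, had 89.4, 106 and 80.9 CPM in ObeSeno, 80.8, 63.0, 65.7 and 92.4 CPM in Obese and 135, 91.3, 129 and 113 CPM in Cntl hearts. The highest Obese library just exceeded the lowest Cntl one, and the change in Obese over Cntl was -0.63 ± 0.16 (adjusted p = 0.00904), or -0.21 (adjusted p = 0.168) on library totals only. Kcnj8, the pore known from vascular smooth muscle and pericytes, had 19.9, 15.1 and 11.8 CPM in ObeSeno, 15.6, 15.2, 13.0 and 18.4 CPM in Obese and 29.7, 25.2, 24.6 and 31.8 CPM in Cntl hearts. All libraries of both obese groups were below all Cntl libraries, with a change of -0.84 ± 0.16 in Obese over Cntl (adjusted p = 0.00245). Of 9 smooth muscle and pericyte markers, 1 (Smtn) was higher and 1 (Rgs5) lower in Obese than in Cntl, and the list summed to 894 to 1404 CPM in ObeSeno, 1058 to 1419 CPM in Obese and 1457 to 1656 CPM in Cntl hearts. The TMM-scaled sums of both obese groups were thus below Cntl without overlap. On library totals the sums overlapped (1071 to 1479 CPM in ObeSeno, 1256 to 1448 CPM in Obese and 1170 to 1554 CPM in Cntl hearts). Most of each sum came from Rgs5 (399 to 888 CPM on library totals) and Abcc9 (255 to 479 CPM). The mean log2(CPM + 1) of the 9 markers, on library totals, weighs each marker alike and did not fall. It averaged 5.78 in ObeSeno, 5.88 in Obese and 5.30 in Cntl hearts, with overlapping ranges. On library totals the median log2 fold change over all genes tested was 0.53 in Obese over Cntl. These means therefore cannot be set directly beside the TMM-scaled fall of Kcnj8. The part of these markers in the fall of Kcnj8 was not tested. The sulfonylurea receptors that complete these channels were not called in this comparison, with a log2 fold change of -0.03 ± 0.13 for Abcc8 (adjusted p = 0.868) and -0.50 ± 0.23 for Abcc9 (adjusted p = 0.109). Each pore gene lies beside a receptor gene in GRCm38. Kcnj8 and Abcc9 are separated by 16247 bases on chromosome 6, and Kcnj11 and Abcc8 by 3758 bases on chromosome 7. Position does not show which receptor joins Kcnj11 in these hearts.

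Kcnj15, an inward rectifier best known from kidney, was the 1 member of this group that rose, on a low level: 0.325, 0.975 and 0.670 CPM in ObeSeno, 0.805, 2.06, 1.12 and 1.30 CPM in Obese and 0.481, 0.315, 0.202 and 0.609 CPM in Cntl hearts. Its 4 Obese libraries were above the 4 Cntl libraries, with a change of 1.73 ± 0.42 (adjusted p = 0.00868). The muscarinic-gated pair Kcnj3 and Kcnj5, which slow the atrium and the sinus node under vagal input, did not pass: 0.69 ± 0.44 for Kcnj3 (adjusted p = 0.257) and -0.16 ± 0.36 for Kcnj5 (adjusted p = 0.768). With the atrial marker level as a covariate Kcnj5 was called lower in Obese than in Cntl (-0.67, adjusted p = 0.0401). Kcnj13, a member at the edge of the line, shares 49.1% of its exon bases with Gigyf2 on the other strand, and since the use of strand is not given its reads cannot be told apart from those of Gigyf2, which was at 56.7 CPM on library totals.

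**Figure D2:**
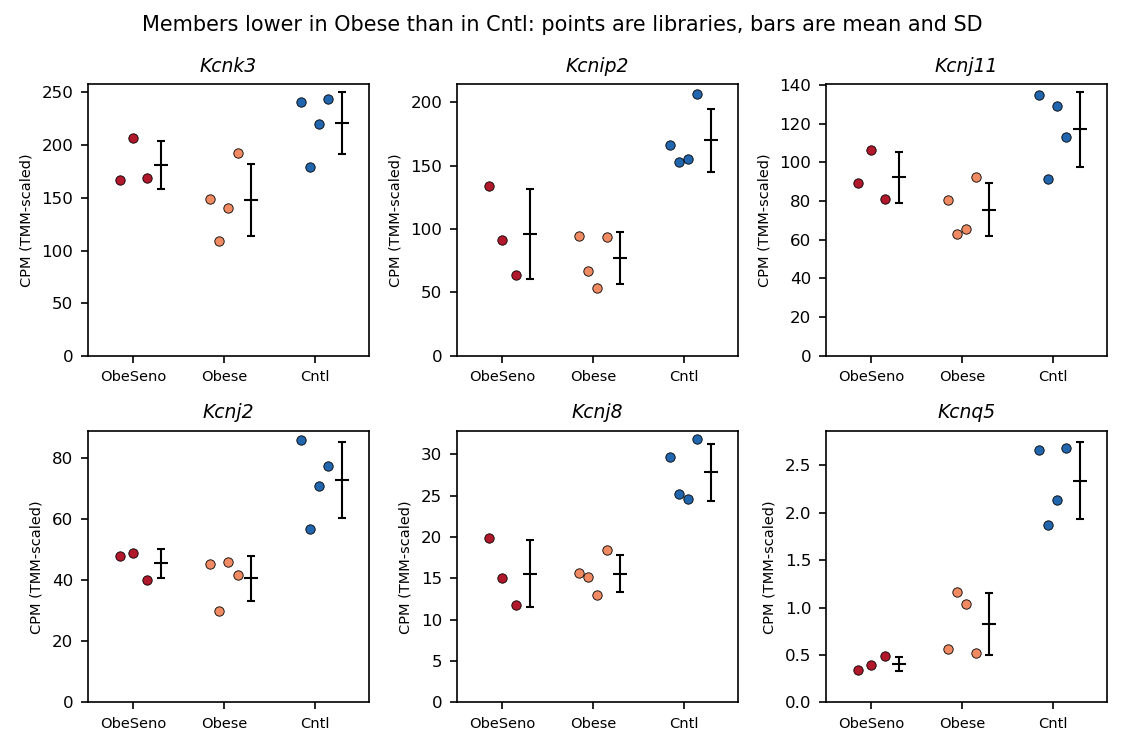
TMM-scaled CPM (vertical axes, from 0) in each library of the ObeSeno, Obese and Cntl groups for the 6 members lower in Obese than in Cntl hearts; points are libraries and bars are mean and SD. For Kcnip2, Kcnj2, Kcnj8 and Kcnq5 no Obese library reaches a Cntl library, while for Kcnj11 and Kcnk3 the ranges meet.

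The Kv pore-forming subunits gave 4 rises and 1 fall among 19. Kcnip2, the accessory subunit of the transient outward channel, had the largest fall among the members with high levels. It had 134, 91.0 and 63.7 CPM in ObeSeno hearts, 94.7, 66.8, 53.8 and 93.9 CPM in Obese hearts and 166, 152, 155 and 206 CPM in Cntl hearts. Both obese groups lay below Cntl without overlap, and the change in Obese over Cntl was -1.14 ± 0.23 (adjusted p = 0.00357), a level 2.20-fold lower in Obese. Of its pore partners, Kcnd3 had 37.0, 28.2 and 36.3 CPM in ObeSeno, 45.3, 36.2, 40.6 and 39.9 CPM in Obese and 27.7, 33.0, 31.4 and 29.0 CPM in Cntl hearts, a rise of 0.42 ± 0.11 in Obese over Cntl (adjusted p = 0.0132). Kcnd2 had 21.1, 16.9 and 17.6 CPM in ObeSeno, 22.4, 12.7, 24.1 and 18.5 CPM in Obese and 22.5, 22.1, 32.9 and 23.6 CPM in Cntl hearts, and its difference of -0.38 ± 0.19 did not pass (adjusted p = 0.137). The third gene of that family, Kcnd1, sat far lower, with 1.73, 1.32 and 1.15 CPM in ObeSeno, 1.03, 1.43, 0.959 and 1.43 CPM in Obese and 0.609, 0.488, 0.314 and 0.468 CPM in Cntl hearts. No Cntl library of Kcnd1 reached a library of either obese group, and the rise in Obese over Cntl was 1.37 ± 0.27 (adjusted p = 0.00274).

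The channels of the Kcnc genes open and close fast and are best known from fast-firing neurons. Kcnc1 rose at a low level and had 5.04, 4.09 and 5.12 CPM in ObeSeno, 0.771, 1.56, 1.89 and 1.41 CPM in Obese and 0.495, 0.660, 0.707 and 0.406 CPM in Cntl hearts, so the 3 groups formed 3 separate ranges. The change in Obese over Cntl was 1.30 ± 0.27 (adjusted p = 0.00409). Kcnc2 had a difference of 1.21 ± 0.58 that did not pass (adjusted p = 0.136).

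Kcnq5, a subunit of the slow M-type current known from neurons and vascular muscle, was the 1 pore-forming Kv subunit that fell. It had 0.340, 0.393 and 0.487 CPM in ObeSeno, 0.565, 1.16, 1.04 and 0.524 CPM in Obese and 2.66, 1.86, 2.13 and 2.68 CPM in Cntl hearts. Each library of both obese groups was below each Cntl library, and the change in Obese over Cntl was -1.5 ± 0.28 (adjusted p = 0.00225). The delayed rectifiers Kcnq1, Kcnh2 and Kcna5 did not pass in this comparison: Kcnq1 differed by 0.01 ± 0.12 (adjusted p = 0.961), Kcnh2 by -0.01 ± 0.17 (0.978) and Kcna5 by 0.27 ± 0.28 (0.487). Kcna4, the pore of the slow transient outward current, differed by -0.76 ± 0.32 (adjusted p = 0.0894). On library totals only, Kcnq1 was called higher in Obese (0.44). Kcnq1 shares 121 exon bases, 2.96% of its own, with the antisense transcript Kcnq1ot1, which was at 320 CPM on library totals. Reads in that stretch cannot be assigned without the strand. Kcnd3, Kcng2 and Kcnk3 also share exon bases with opposite-strand genes, all at 16.9 CPM or less on library totals. Of the 2 modifier subunits, Kcng2 (-0.22 ± 0.15, adjusted p = 0.280) and Kcnv2 (0.54 ± 0.26, adjusted p = 0.132) did not pass.

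**Figure D3:**
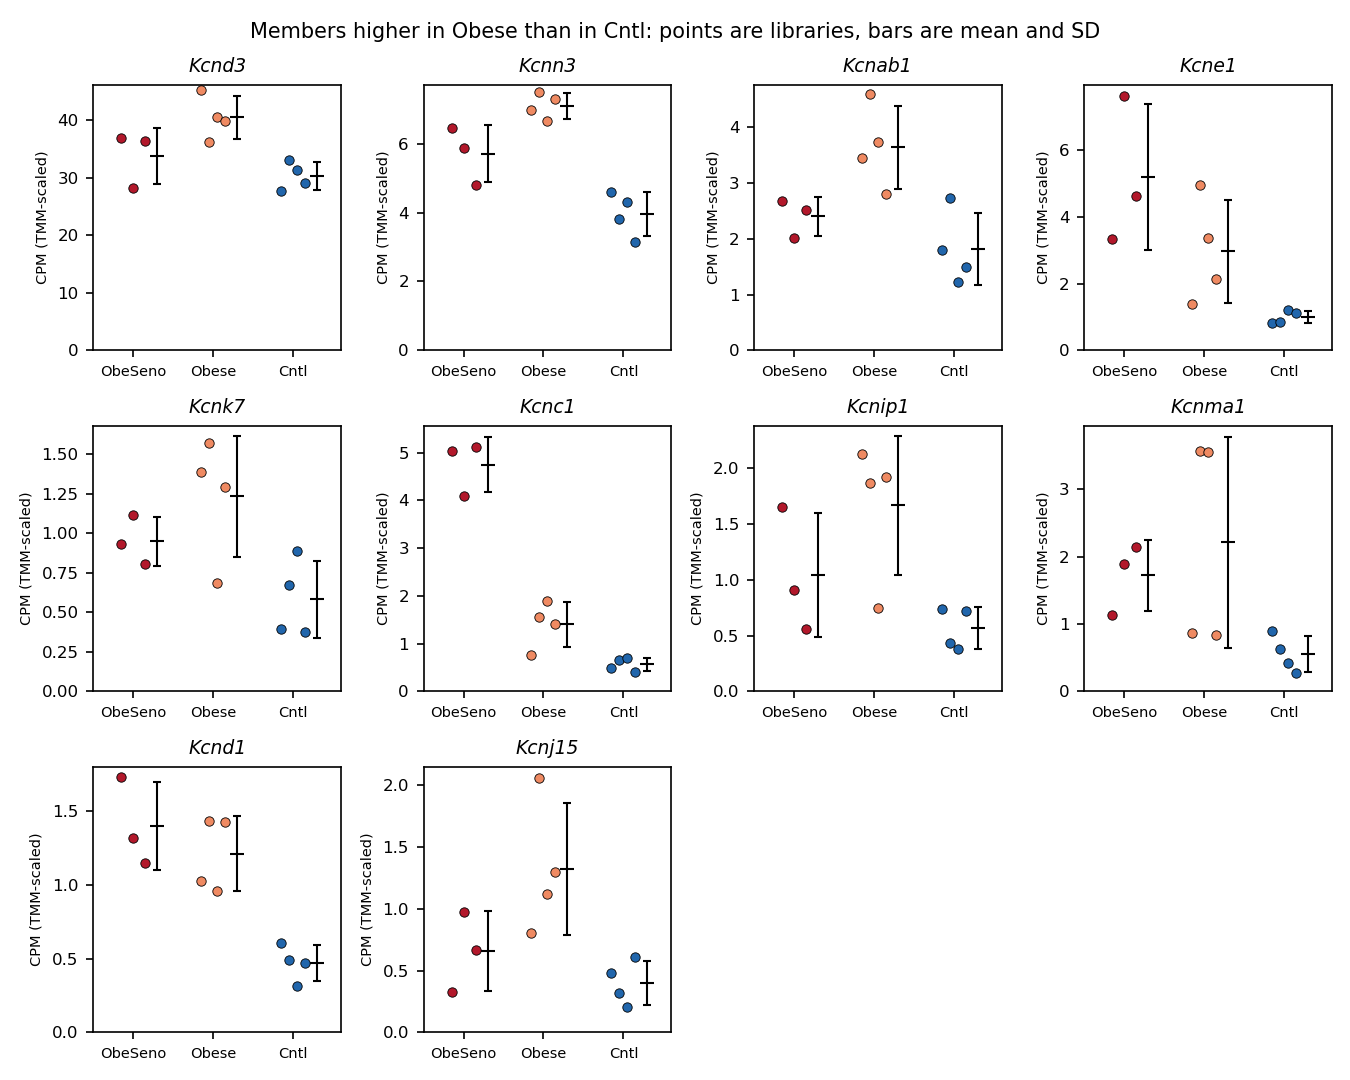
TMM-scaled CPM (vertical axes, from 0) in each library of the ObeSeno, Obese and Cntl groups for 10 members higher in Obese than in Cntl hearts; points are libraries and bars are mean and SD. Kcnd3 lies at 28 to 45 CPM and the other 9 below 8 CPM, and the ObeSeno points of Kcnc1 stand above both other groups.

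Of the 8 two-pore-domain channels, 1 fell and 1 rose. Kcnk3, an acid-sensitive background channel and the highest member per kb, had 167, 207 and 169 CPM in ObeSeno, 149, 109, 141 and 192 CPM in Obese and 241, 179, 220 and 244 CPM in Cntl hearts. Obese library 4 exceeded Cntl library 2, and the change was -0.58 ± 0.16 in Obese over Cntl (adjusted p = 0.0185). That call was lost without Cntl library 1 (adjusted p = 0.0507) or 4 (0.0525), without the 3 high-atrial libraries (0.0576) and on library totals only (-0.16, adjusted p = 0.310). Kcnk7, for which no channel function is established, had 0.932, 1.11 and 0.804 CPM in ObeSeno, 1.39, 1.57, 0.687 and 1.30 CPM in Obese and 0.396, 0.674, 0.886 and 0.374 CPM in Cntl hearts. Its Obese and Cntl ranges overlapped, and the rise of 1.07 ± 0.33 (adjusted p = 0.0269) was lost without Cntl library 1 (adjusted p = 0.0811) or 4 (0.0812) and without Obese library 1 (0.0622), 2 (0.0737) or 4 (0.0517).

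Among the 6 calcium- and sodium-activated channels, 2 rose and 0 fell. Kcnn3, a small-conductance calcium-activated channel, had 6.45, 5.86 and 4.81 CPM in ObeSeno, 6.97, 7.5, 6.65 and 7.28 CPM in Obese and 4.59, 3.80, 4.31 and 3.15 CPM in Cntl hearts. Its 4 Obese libraries lay within a narrow range above all Cntl libraries, and the rise of 0.84 ± 0.15 had the smallest p of any member in this comparison (adjusted p = 0.00158). Kcnma1, the large-conductance calcium-activated channel known from vascular smooth muscle, had 1.14, 1.89 and 2.14 CPM in ObeSeno, 0.873, 3.57, 3.56 and 0.845 CPM in Obese and 0.892, 0.631, 0.415 and 0.281 CPM in Cntl hearts. Obese libraries 2 and 3 were high, whereas Obese libraries 1 and 4 were below the highest Cntl library. The change was 1.99 ± 0.53 (adjusted p = 0.0148), with overlapping ranges. Its beta subunit Kcnmb1 differed by 0.45 ± 0.34 (adjusted p = 0.341).

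Of the 10 accessory subunits, 3 rose and Kcnip2 fell. Kcne1, which slows the gating of Kcnq1, had 3.34, 7.64 and 4.63 CPM in ObeSeno, 1.40, 4.95, 3.37 and 2.16 CPM in Obese and 0.835, 0.860, 1.21 and 1.12 CPM in Cntl hearts. Both obese groups were above Cntl without overlap, and the rise in Obese over Cntl was 1.56 ± 0.36 (adjusted p = 0.00736). Kcnab1, a cytoplasmic beta subunit of Kv channels, had 2.68, 2.01 and 2.52 CPM in ObeSeno, 3.44, 4.59, 3.72 and 2.80 CPM in Obese and 1.80, 2.72, 1.23 and 1.5 CPM in Cntl hearts, a rise of 1.01 ± 0.25 in Obese (adjusted p = 0.00899). Kcnip1, a relative of Kcnip2 known mainly from neurons, had 1.66, 0.912 and 0.561 CPM in ObeSeno, 2.12, 1.87, 0.751 and 1.92 CPM in Obese and 0.736, 0.430, 0.381 and 0.718 CPM in Cntl hearts. Kcnip1 thus moved opposite to Kcnip2 in Obese over Cntl, by 1.56 ± 0.40 (adjusted p = 0.0109), at a far lower level.

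The genes outside the family that act with these channels were read from 3 further lists. The lists are short and were chosen with earlier results of these data known. Over all genes tested 14.4% were called higher and 15.7% lower in Obese against Cntl. Of 16 channel partners tested, 3 were higher in Obese than in Cntl (Dpp6, Lrrc52 and Hcn4) and 2 lower (Cav3 and Dlg1). Dpp6, a transmembrane partner of the Kcnd pores, was under 1 CPM in every library and rose by 2.50 ± 0.49 (adjusted p = 0.00271). Lrrc52, an auxiliary subunit of large-conductance potassium channels, rose by 1.38 ± 0.28 (adjusted p = 0.00359), Hcn4, the pacemaker channel, rose by 1.65 ± 0.40 (0.0119), and Cav3, the caveolin of muscle, fell by 0.81 ± 0.19 (0.00772). Of 9 transcription factors known for cardiac potassium channel genes, 0 rose and 4 fell. Irx3 had 16.3, 12.4 and 9.38 CPM in ObeSeno, 11.8, 9.48, 11.8 and 13.9 CPM in Obese and 38.9, 28.4, 36.5 and 25.0 CPM in Cntl hearts, a change of -1.45 ± 0.19 in Obese over Cntl (adjusted p = 0.000321). Irx5, which in mouse ventricle is known to repress Kcnd2, changed by -0.76 ± 0.18 (adjusted p = 0.00891). The circadian factors Arntl and Clock changed by -2.49 ± 0.30 (adjusted p = 0.000259) and -0.76 ± 0.10 (0.000299), and the labels do not state the hour at which hearts were taken. Of 15 sodium and calcium channel and sodium pump genes, 1 rose (Cacna1g, 1.79 ± 0.33, adjusted p = 0.00297) and 3 fell, Atp1b1 and Fxyd1 among them.

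The second comparison asked what the senolytic pair did in hearts on the obesogenic diet. With the edgeR test 0 of 53 members were called higher or lower in ObeSeno than in Obese hearts, as were 0 of all genes tested (0%). At an unadjusted p under 0.05 there were 9 members and 2425 genes (10.2%), limma voom called 0 genes (0%), and DESeq2 called 131 genes (0.551%), of which 1 was a member. The DESeq2 call was Kcnc1, whose 3 ObeSeno libraries (4.09 to 5.12 CPM) were all above the 4 Obese libraries (0.771 to 1.89 CPM). The edgeR change of Kcnc1 was 1.75 ± 0.28 (adjusted p = 0.141), a 3.37-fold higher level in ObeSeno; without Obese library 3 it passed (1.93, adjusted p = 0.0435), and over the alternatives its adjusted p ran from 2.1e-06 with DESeq2 to 0.464.

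The other members with the smallest p in that comparison are given as values. Kcnj12 differed by 0.66 ± 0.21 (adjusted p = 0.386), Kcnn1, a small-conductance calcium-activated channel, by 0.34 ± 0.13 (0.418), Kcnq5 by -1.01 ± 0.32 (0.387), Kcnj15 by -1.0 ± 0.44 (0.480) and Kcnab1 by -0.60 ± 0.27 (0.480). All 3 ObeSeno libraries of Kcnj12 (18.9 to 23.9 CPM) were above all 4 Obese libraries (8.55 to 15.4 CPM), and all 3 of Kcnq5 (0.340 to 0.487 CPM) were below all 4 Obese libraries (0.524 to 1.16 CPM). Groups did not overlap for 7 of 53 members, and for 10.1% of all genes tested. Of the 6 members that fell in Obese relative to Cntl, the estimates in ObeSeno over Obese were 0.16 ± 0.16 for Kcnj2, 0.00 ± 0.17 for Kcnj8, 0.29 ± 0.17 for Kcnj11, 0.32 ± 0.24 for Kcnip2, 0.29 ± 0.18 for Kcnk3 and -1.01 ± 0.32 for Kcnq5, none of which passed. The comparisons with Obese and with Cntl share libraries, so these estimates are set beside those of Obese over Cntl and are not independent of them.

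The third comparison set ObeSeno against Cntl hearts, which differ in both diet and treatment. Here 7 members rose (Kcnc1, Kcne1, Kcnc2, Kcnd1, Kcnip3, Kcnrg and Kcnn3) and 5 fell, Kcnq5, Kcnj8, Kcnip2 and Kcnj2 among them, against 7.43% higher and 8.39% lower, or 15.8% in either direction, over all genes tested. Groups did not overlap for 17 members, against 27.9% of all genes, and 18 members had an unadjusted p under 0.05, against 32.1% of all genes. DESeq2 called 15 members, against 21.6% of all genes, and limma voom called 12, against 15.2%. The median log2 fold change was 0.25 over the members and 0.05 over all genes tested. Kcnc1 showed the largest change, 3.06 ± 0.29 or 8.32-fold higher in ObeSeno (adjusted p = 0.0002), followed by Kcnq5 at -2.51 ± 0.33 or 5.70-fold lower in ObeSeno (0.000905) and Kcne1 at 2.37 ± 0.38 (0.00290). Kcnd1 rose by 1.57 ± 0.28 (adjusted p = 0.00437). These 4 passed without any single library.

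The calls of Kcnj8, Kcnj2 and Kcnip2 in ObeSeno against Cntl were each lost without 1 or more single libraries and under other settings. Kcnj8 changed by -0.84 ± 0.17 (adjusted p = 0.00896; 0.0509 without ObeSeno library 3) and Kcnj2 by -0.67 ± 0.17 (adjusted p = 0.0191; 0.0995 without ObeSeno library 3, 0.0555 without Cntl library 1 and 0.0510 without Cntl library 4). Kcnip2 changed by -0.82 ± 0.25 (adjusted p = 0.0434) and lost its call without ObeSeno library 3 (-0.60, adjusted p = 0.170) or 2 (0.109), without Cntl library 1 (0.0807), 3 (0.0627) or 4 (0.109) and without Obese library 2 (0.0507). With the 3 high-atrial libraries left out, none of these 3 passed, at -0.47 for Kcnj8, -0.60 for Kcnj2 and -0.33 for Kcnip2 (adjusted p = 0.204, 0.223 and 0.463), and 1 ObeSeno library then stood against Cntl. With the atrial marker level as a covariate none of them passed either, at -0.57 for Kcnj8, -0.65 for Kcnj2 and -0.37 for Kcnip2 (adjusted p = 0.0595, 0.0648 and 0.283). On library totals only, Kcnj2 (-0.24, adjusted p = 0.178) and Kcnip2 (-0.41, adjusted p = 0.120) did not pass, and Kcnip2 also missed the threshold with upper-quartile scaling (-0.75, adjusted p = 0.0620) and with no low-count filter (0.0609).

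The rises of Kcnip3 (0.98 ± 0.28, adjusted p = 0.0344), a calcium sensor that binds Kcnd pores, and of Kcnrg (0.68 ± 0.20, adjusted p = 0.0375), a regulator of Kv assembly, were small in level, with 4.70 ± 0.579 CPM in ObeSeno and 2.38 ± 0.956 CPM in Cntl hearts for Kcnip3. The Kcnip3 call was lost without any 1 of the ObeSeno libraries 1, 2 and 3 (adjusted p = 0.0906, 0.0503 and 0.116) or of Cntl libraries 1 and 4 (0.0927 and 0.0759). The Kcnrg call was lost without ObeSeno library 1 (adjusted p = 0.0961) or 3 (0.142) and without Cntl library 1 (0.0983), 3 (0.0565) or 4 (0.0968), and with no low-count filter (0.0558). Kcnn3 rose by 0.53 ± 0.16 (adjusted p = 0.0404), with adjusted p up to 0.137 without single libraries, namely each ObeSeno library, Cntl libraries 2, 3 and 4 and Obese libraries 1 and 4, and it also missed the threshold with no low-count filter (0.0700) and in the fit of the 2 groups alone (0.0610). With a replicate block neither Kcnrg (0.59, adjusted p = 0.0843) nor Kcnn3 (0.48, adjusted p = 0.0857) passed. Kcnj3 stood just outside, at 1.51 ± 0.47 (adjusted p = 0.0542), and passed under 9 alternatives, among them the fit without ObeSeno library 1 (1.90, adjusted p = 0.0109). Kcnma1 at 1.64 ± 0.55 (adjusted p = 0.0638) also passed without Obese library 1 (0.0442) or 4 (0.0461). Of the 3 partner lists, ObeSeno against Cntl gave 4 of 16 channel partners higher (Abcc8, Dpp6, Hcn4 and Lrrc52) and 1 lower (Cav3). Of 9 transcription factors, 0 were higher and 4 lower (Arntl, Clock, Irx3 and Irx4). Of 15 sodium and calcium channel and pump genes, 2 were higher (Cacna1g and Cacna1h) and 1 lower (Cacna2d1). Over all genes tested 7.43% were called higher and 8.39% lower in that comparison. ObeSeno against Obese gave 0 in each list and 0 over all genes tested. Abcc8, the sulfonylurea receptor known from mouse atrium, was 0.45 ± 0.14 higher in ObeSeno than in Cntl (adjusted p = 0.0465), and its highest library was ObeSeno library 3.

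Among the myocyte channels that did not pass in ObeSeno against Cntl, Kcnh2, the pore of the rapid delayed rectifier, had 105, 107 and 115 CPM in ObeSeno, 80.1, 55.5, 104 and 92.0 CPM in Obese and 93.7, 68.8, 97.9 and 73.3 CPM in Cntl hearts. Its 3 ObeSeno libraries were the highest of all 11, but the difference from Cntl was 0.38 ± 0.19 (adjusted p = 0.174) and that from Obese 0.39 ± 0.19 (0.5). Kcnd2 differed from Cntl by -0.45 ± 0.20 (adjusted p = 0.148), Kcnj11 by -0.34 ± 0.17 (0.177), Kcnk3 by -0.29 ± 0.18 (0.285) and Kcnd3 by 0.16 ± 0.12 (0.380).

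Several members were high or low in the 3 libraries that stood apart in atrial markers and in some markers of other cell types. Kcnj3 had 69.8, 206 and 294 CPM in ObeSeno, 87.3, 56.3, 183 and 103.2 CPM in Obese and 79.5, 49.7, 68.8 and 68.6 CPM in Cntl hearts. Its 3 highest values were those of ObeSeno libraries 3 and 2 and Obese library 3, and without these the change in ObeSeno over Cntl was 0.08 (adjusted p = 0.910). Kcnj5 had 40.9, 113 and 106 CPM in ObeSeno, 44.9, 37.2, 90.4 and 60.0 CPM in Obese and 77.8, 41.5, 61.2 and 79.0 CPM in Cntl hearts, again with these 3 libraries highest. In all, 6 of 53 members (Kcnj3, Kcnj5, Kcnq1, Kcnk5, Kcna1 and Kcnc2) were above the other 8 libraries in all 3, against 4.67% of all genes tested, and 3 of 53, Kcnk2 and Kcnj8 among them, were below them in all 3, against 1.70% of all genes tested. The summed smooth muscle and pericyte markers were lower in these 3 (894 to 1058 CPM) than in the other 8 (1172 to 1656 CPM). Taken singly, 0 of the 9 markers lay below the other 8 libraries in all 3. Kcnc2 had 2.14, 3.67 and 8.08 CPM in ObeSeno, 1.03, 1.62, 5.82 and 1.37 CPM in Obese and 0.892, 0.703, 1.58 and 1.06 CPM in Cntl hearts. Its call in ObeSeno over Cntl (2.12 ± 0.62, adjusted p = 0.0404) fell to a change of 0.58 (adjusted p = 0.313) with the atrial marker level as a covariate, and was also lost without ObeSeno library 2 (0.0644) or 3 (1.45, 0.183) and without any single Cntl library (0.0545 to 0.105). Without the 3 libraries, 10 members were higher and 7 lower in Obese than in Cntl, beside 11 and 6 with all libraries. The share of all genes called in that smaller fit is not given here, so these counts have no background beside them. For ObeSeno against Cntl 1 ObeSeno library was then left and was assumed to vary like the other groups, so only effect sizes are read. Kcne1, known from atrium and conduction tissue as well as ventricle, lost its call in ObeSeno over Cntl without the 3 libraries. Its change was then 1.74, against 2.37 with all libraries.

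**Figure D4:**
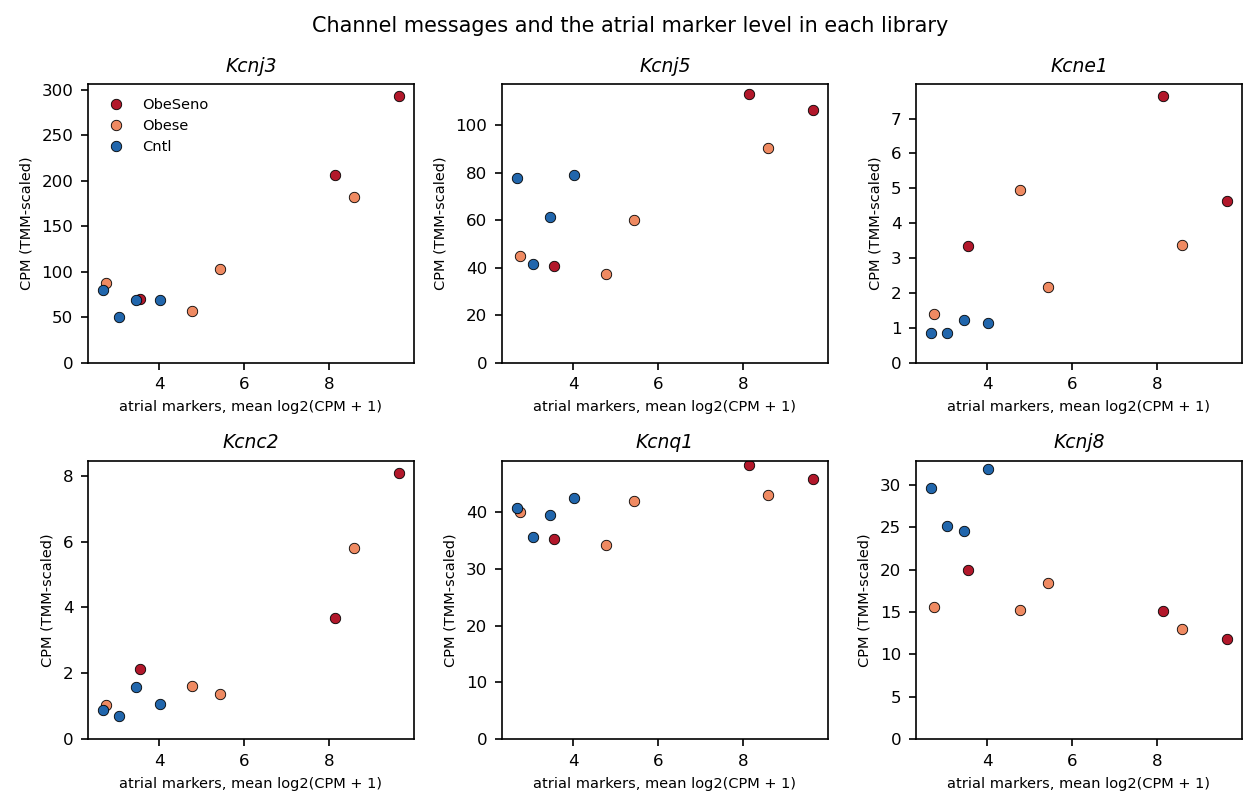
TMM-scaled CPM of 6 channel genes (vertical axes, from 0) against the mean log2(CPM + 1), on library totals, of 8 atrial myocyte markers (horizontal axes), 1 point per library, coloured by group. The 3 points at the right are ObeSeno libraries 2 and 3 and Obese library 3, which hold the highest Kcnj3 (183 to 294 CPM) and the lowest Kcnj8 values (11.8 to 15.1 CPM).

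Ratios of subunits that assemble were formed within each library, from counts per kilobase of exon, so they do not depend on the scaling of libraries; the pairs were chosen with the results known and are given without a test. The ratio of Kcnip2 to the sum of Kcnd2 and Kcnd3 was 4.86, 4.21 and 2.54 in ObeSeno, 3.01, 3.08, 1.74 and 3.49 in Obese and 6.59, 5.68, 4.61 and 7.80 in Cntl hearts. All Obese values were below all Cntl values, and the ObeSeno range reached into both. The ratio of Kcnd3 to Kcnd2 was 0.943, 0.896 and 1.11 in ObeSeno, 1.09, 1.53, 0.904 and 1.16 in Obese and 0.661, 0.804, 0.512 and 0.662 in Cntl hearts, so both obese groups were above Cntl without overlap. The ratio of Kcnj2 to Kcnj12 averaged 1.11 ± 0.232 in ObeSeno, 1.57 ± 0.162 in Obese and 2.08 ± 0.302 in Cntl hearts (SD, n = 3, 4 and 4), and the 3 ranges were separate.

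For the ATP-sensitive channels, Kcnj11 over Abcc8 averaged 2.61 ± 0.742 in ObeSeno, 2.88 ± 0.455 in Obese and 4.37 ± 0.839 in Cntl hearts. The lowest Cntl library (3.23) was below the highest Obese library (3.45). Abcc8 is the receptor known from mouse atrium, and a ratio of Kcnj11 to Abcc9 was not formed. Kcnj8 over Abcc9 averaged 0.163 ± 0.0163 in ObeSeno, 0.152 ± 0.0225 in Obese and 0.187 ± 0.0170 in Cntl hearts, with overlapping ranges. Kcnj3 over Kcnj5 averaged 1.88 ± 0.519 in ObeSeno, 1.62 ± 0.207 in Obese and 0.946 ± 0.128 in Cntl hearts. Unlike Kcnj3 alone, this ratio was above every Cntl library in each ObeSeno and Obese library, including those with low atrial markers. Kcne1 over Kcnq1 averaged 0.15 ± 0.0444 in ObeSeno, 0.0985 ± 0.0614 in Obese and 0.0324 ± 0.00542 in Cntl hearts, also without overlap between either obese group and Cntl.

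**Figure D5:**
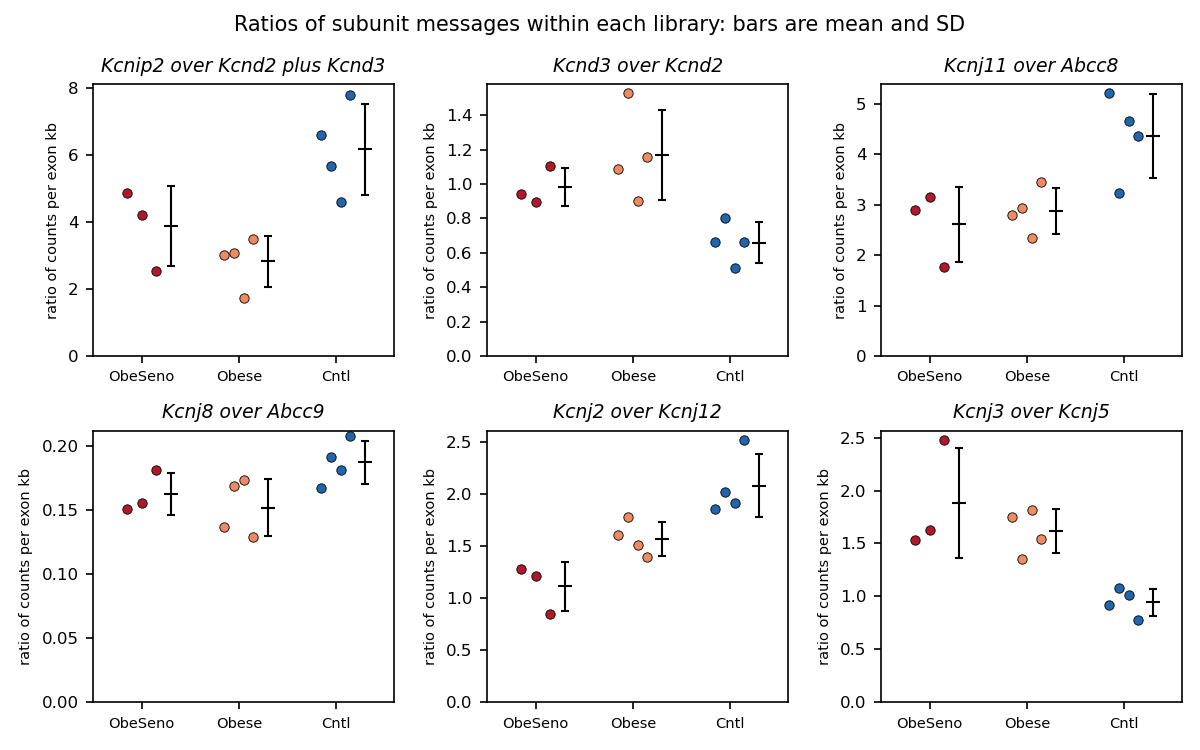
Ratio of counts per kilobase of exon between subunits (vertical axes, from 0) in each ObeSeno, Obese and Cntl library; points are libraries and bars are mean and SD. Kcnip2 over Kcnd2 plus Kcnd3 averages 3.87, 2.83 and 6.17 from left to right, and Kcnd3 over Kcnd2 averages 0.982, 1.17 and 0.660.

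Below the line, 22 of the 41 family genes had enough counts to be tested, and 3 (Kcna10, Kcns2 and Kcnv1) had 0 counts in all libraries. Against 14.4% higher and 15.7% lower over all genes tested, 4 of the 22 were called higher and 0 lower in Obese over Cntl. They were Kcnj14, with 0.218, 0.567 and 0.292 CPM in ObeSeno, 0.673, 1.40, 0.322 and 0.981 CPM in Obese and 0.166, 0.123, 0.0871 and 0.0457 CPM in Cntl hearts on library totals (2.58 ± 0.51, adjusted p = 0.00297), and Kcnh4, Kcnb2 and Kcnmb4. Kcnb2, a Kv pore, was at 0 in 3 of 4 Cntl libraries, and Kcnmb4, a beta subunit of Kcnma1, in 3 of 4, so no fold is given for them.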

How the data were processed

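Heart RNA was sequenced in 11 libraries (3 ObeSeno, 4 Obese and 4 Cntl). The authors deposited 1 table of whole-number read counts per Ensembl gene, with 55487 identifiers; per the submitters' processing notes cutadapt, HISAT2, StringTie and build GRCm38 were used, and per the labels nothing is said of strand. Of the identifiers, 55141 matched GENCODE M21, from which types, positions and exon lengths were taken. The members and all lists were chosen with earlier results of these data known.

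Counts as deposited were filtered with filterByExpr (minimum count 10, minimum total 15), which left 23779 genes and all 53 members, scaled by TMM and fitted with edgeR 4.0.16 in R 4.3.3 (glmQLFit, robust, and glmQLFTest) over the 3 groups at once. The common biological coefficient of variation was 0.259. Called means a Benjamini-Hochberg adjusted p under 0.05 over all genes tested; ± after a log2 fold change is the standard error, computed from the F statistic. Levels are TMM-scaled CPM per library unless library totals are named. The script was tested on simulated counts. Named are, per comparison, the 10 largest rises and falls and 6 smallest adjusted p among called members (the 6 smallest p where fewer pass), 16 channel genes of known cardiac currents, the 6 highest per kb, the 3 genes on each side of the line and up to 4 called genes per partner list; others were named after their values were seen, and the values of some genes are not reported here. Alternatives were other scalings and filters, DESeq2 1.42.0, limma 3.58.1 (voom), 2-group fits, a replicate block, each library left out, and, chosen after seeing the data, leaving out the 3 high-atrial libraries, covariates for atrial markers and for the sense-intronic and TEC share, and protein-coding genes only. Replicates of a group differed by more than counting noise in all 15 pairs (chi-square over degrees of freedom 30.8 to 123).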

Additional observations from a re-analysis of the deposited data

Results flagged for a closer look

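Among 56 groups of 4 libraries examined for 28 named members, 4 held 1 library far from the other 3, where chance alone gives about 1 in 20. Kcnc2 was at 5.82 CPM in Obese library 3, while the other Obese libraries held 1.03 to 1.62 CPM, and this library is 1 of the 3 with high atrial markers. Kcnj12 was at 8.55 CPM in Obese library 2, against 14.3 to 15.4 CPM in the others. Kcnd2 was at 32.9 CPM in Cntl library 3, against 22.1 to 23.6 CPM in the others. Kcng2 was at 105.5 CPM in Cntl library 2, against 128 to 131 CPM in the others.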

How the results depend on the processing

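For Obese against Cntl, leaving out single libraries gave 9 to 12 members higher and 5 to 8 lower. Counts over all genes moved too, with 2117 higher and 2800 lower without Cntl library 4 and 3752 and 4401 without Cntl library 2. Library totals only gave 22 higher, against 9061 of all 23779 genes tested, and the sense-intronic and TEC share as a covariate gave 0 higher and 0 lower. For ObeSeno against Obese, DESeq2 gave 1 member higher, against 51 of all 23779 genes tested, and leaving out single libraries gave 0 to 1. For ObeSeno against Cntl, higher members numbered 24 on library totals only, against 6911 of all 23779 genes tested. They numbered 4 with no low-count filter (1236 of 41491 genes), 3 with the share covariate and 3 to 8 without single libraries. Over all genes 783 were called higher without Cntl library 4, which gave 3 members, and 1930 without Cntl library 2, which gave 6. Lower members numbered 3 on library totals only, against 389 of all 23779 genes tested. They numbered 2 with the atrial covariate, 1 with the share covariate and 1 to 5 without single libraries. Over all genes 1033 were called lower without Cntl library 4 and 2722 without Cntl library 2. Counts over all genes for the covariate fits of ObeSeno against Cntl are not given here, so those member counts have no background beside them. Signs turned for Kcng2 on library totals only (0.19 in Obese against Cntl, 0.37 in ObeSeno against Cntl), for Kcnk3 (0.15) in ObeSeno against Cntl on library totals only, and for Kcnj5 in ObeSeno against Cntl without the 3 high-atrial libraries (-0.65) and with the atrial covariate (-0.53). The cause was not tested. The summed level of all members in Cntl hearts was 1292 CPM with TMM scaling and 1068 CPM on library totals. Replicate numbers did not pair the libraries (same-number correlations -0.232 to 0.399). Those of Obese and ObeSeno libraries 1 (0.399) and 3 (0.336) nevertheless exceeded every different-number value (highest 0.192), and ObeSeno library 2 correlated best with Obese library 3. The fit with a replicate block gave 13 higher and 7 lower, 0 and 0, and 7 and 5 members in the 3 comparisons. Over all genes that fit gave 3315 higher and 3797 lower, 0 and 0, and 1264 and 1426. The calls of Kcnrg and Kcnn3 in ObeSeno against Cntl were lost in it. Members near 0.5 CPM rest on few reads, and 3 to 4 libraries a group limit the precision.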
